A study of Mus musculus with 20 samples.

Results

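The MAGE and Xlr genes are multicopy families, most of them on the mouse X chromosome, that are known for transcription in germ cells. Every gene was taken whose symbol began with Mage, a letter from a, b, d, e, h or l and a number, or with Xlr and a number, in both deposited tables, leaving out 15 symbols that carry -ps for pseudogene. This gave 30 genes of the 53722 in the oocyte table and the 55291 in the spermatogonia table. They were 21 MAGE genes (8 Magea, 7 Mageb, 2 Maged, 2 Magee, Mageh1 and Magel2) and 9 Xlr genes (3 each of Xlr3, Xlr4 and Xlr5). The study sequenced the RNA of mouse germ cells after conditional deletion of Chd4, which encodes the remodelling ATPase of the NuRD chromatin complex, in 20 libraries forming 10 groups of 2.

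Of these groups, 6 came from mice with Ddx4-Cre, a transgene that acts in germ cells. Non-growing oocytes (NGO) at postnatal day 1 (P1) and 5 (P5) and undifferentiated spermatogonia at P3 were either knockout (DcKO, Chd4 f/-; Ddx4-Cre Tg/+) or control (Dctrl, Chd4 f/+; Ddx4-Cre Tg/+). The Dctrl germ cells therefore also carried Cre and could lose 1 Chd4 allele. The other 4 groups were NGO and growing oocytes (GO) at P10, either knockout (GcKO, Chd4 f/f; Gdf9-iCre Tg/+) or control (Gctrl, Chd4 f/f without Cre). Gdf9-iCre acts in oocytes. The labels give ovary or testis as source, a cross of the strains C57BL/6, 129S1/Sv and FVB/NJ for all groups, and no word on whether replicates came from separate animals. The p-values thus cover only the spread between libraries, which may be technical. Levels are TPM, the transcripts of a gene after division by its length, scaled to the same total in every library, and errors are SD over 2 libraries.

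MAGE proteins share a MAGE homology domain with which many of them bind RING-type ubiquitin ligases and alter what these ligases act on. The Magea and Mageb genes, called type I, are known for transcription in germ cells and in tumours, where human relatives were found as melanoma antigens. The Maged, Magee, Mageh and Magel genes, called type II, are transcribed in many tissues. Xlr proteins carry a Cor1 region that they share with SYCP3, a component of the axis of meiotic chromosomes. The Xlr3, Xlr4 and Xlr5 genes form a cluster of related copies. Promoters of several germline gene families are known to be silenced in somatic cells by DNA methylation of CG dinucleotides.

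On the GRCm38 build, 28 of the 30 genes lay on chromosome X, while Mageb3 lay on chromosome 2 and Magel2 on chromosome 7. All coordinates are from the GENCODE M21 annotation. The Xlr cluster ran from Xlr4a (chrX:73074345-73082478) to Xlr5c (chrX:73282896-73292976), and 6 of the Magea genes lay between Magea6 (chrX:154924012-154935987) and Magea2 (chrX:155027201-155093666). Reads of such copies are hard to assign. The share of a gene's 100-base transcript windows found unchanged in a transcript of another gene ranged over the Xlr genes from 24.4% in Xlr3a to 81.3% in Xlr5b. It was 24.6% in Magea5, 53.9% in Mageb16, 40.5% in Mageb4, whose shared windows were those of the overlapping Mageb10-ps, and 0% in Maged1. Magea1, Magea2, Magea3, Magea6, Magea8, Mageb1, Mageb2, Mageb3 and Mageb5 also shared windows, from 12.1% in Mageb3 to 83.6% in Mageb1. In the annotation Xlr5a spans 6 other Xlr genes. The split of reads between copies is therefore uncertain for the Xlr genes and for these Magea and Mageb genes, and how the authors treated reads that map to several places, and the strand setting of their counting, are not given in the sources used here.

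Sequences before the annotated start are shown for genes on which the results below turn: Xlr3c, which had the largest fitted rise in knockout growing oocytes, its copy Xlr3a, which did not pass there, Xlr4a as the most abundant Xlr gene in oocytes, Xlr5a, Magea5, which rose at P5, and Maged1. Each is the 250 bases before the start in RefSeq's GRCm38.p6 table, read 5′ to 3′ on the gene's strand. Capitals mark CG dinucleotides and the ETS-type motif CCGGAAG on either strand. All 6 genes are on the minus strand, and the windows are Xlr3a at chrX:73097096-73097345, Xlr3c at chrX:73265391-73265640, Xlr4a at chrX:73082508-73082757, Xlr5a at chrX:73117703-73117952, Magea5 at chrX:155061554-155061803 and Maged1 at chrX:94542026-94542275.
Xlr3a: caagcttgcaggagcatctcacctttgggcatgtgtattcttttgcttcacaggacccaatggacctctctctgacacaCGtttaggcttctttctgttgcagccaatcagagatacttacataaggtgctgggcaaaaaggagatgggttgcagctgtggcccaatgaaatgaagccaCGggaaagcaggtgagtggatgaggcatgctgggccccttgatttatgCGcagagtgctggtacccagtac
Xlr3c: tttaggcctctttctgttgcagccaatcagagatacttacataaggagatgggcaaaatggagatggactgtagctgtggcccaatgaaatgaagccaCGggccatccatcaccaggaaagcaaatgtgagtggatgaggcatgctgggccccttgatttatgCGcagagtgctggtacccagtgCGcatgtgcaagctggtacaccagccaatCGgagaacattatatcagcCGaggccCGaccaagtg
Xlr4a: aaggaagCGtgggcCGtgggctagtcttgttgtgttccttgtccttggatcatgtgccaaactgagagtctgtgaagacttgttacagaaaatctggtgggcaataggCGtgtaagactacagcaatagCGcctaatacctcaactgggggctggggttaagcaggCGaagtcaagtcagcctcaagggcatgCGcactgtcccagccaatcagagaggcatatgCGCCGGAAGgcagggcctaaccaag
Xlr5a: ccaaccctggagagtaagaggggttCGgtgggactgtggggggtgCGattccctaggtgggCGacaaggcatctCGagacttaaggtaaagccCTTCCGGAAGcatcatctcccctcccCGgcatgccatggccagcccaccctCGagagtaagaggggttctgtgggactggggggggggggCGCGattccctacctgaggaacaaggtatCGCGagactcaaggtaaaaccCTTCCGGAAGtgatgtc
Magea5: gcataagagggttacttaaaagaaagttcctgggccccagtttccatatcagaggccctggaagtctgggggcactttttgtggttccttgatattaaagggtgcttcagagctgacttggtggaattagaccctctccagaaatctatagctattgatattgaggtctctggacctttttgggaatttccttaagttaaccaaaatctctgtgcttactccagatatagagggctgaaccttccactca
Maged1: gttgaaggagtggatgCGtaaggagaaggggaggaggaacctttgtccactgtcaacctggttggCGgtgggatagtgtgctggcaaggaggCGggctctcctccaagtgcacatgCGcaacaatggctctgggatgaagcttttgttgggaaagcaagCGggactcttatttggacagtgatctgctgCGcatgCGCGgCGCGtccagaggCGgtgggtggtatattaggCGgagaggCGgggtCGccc

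RefSeq promoter windows of 300 bases (250 before and 50 after the start) were found for 28 of the 30 genes, all but Mageb1 and Mageb2. The motif CCGGAAG, searched on both strands, was in the windows of Xlr4a, Xlr4b, Xlr4c, Xlr5a and Xlr5b, and in 1 of the 4 windows of Maged2. It was in 8.86% of the 32851 promoter windows of the table. The letters of an E-box (CACGTG, 7.15% of all windows) and of an E2F site (TTCCCGCC, 2.19%), searched the same way, were in none of the members' windows. CG dinucleotides numbered 16 in the windows of Xlr5a and Xlr5b, 8 in those of Xlr4a and Xlr4b and 7 in those of Xlr3b, Xlr3c and Xlr4c. They numbered 5 in that of Xlr3a and 1 in that of Xlr5c, against a median of 7 over all windows. The Magea5 window held none and the Maged1 window 20. The Xlr5c window (chrX:73290516-73290765 before the start) lies inside the gene as GENCODE M21 gives it. So do the windows shown above for Xlr5a and Magea5, and that of Maged1 lies partly inside its gene. Aligned without gaps at the offset of best match, the windows of 250 bases before the start were identical where they overlapped in Xlr5a and Xlr5b (offset 45 bases), and in the overlap shared 98.3% of bases in Xlr3b and Xlr3c (offset 20) and 98.4% in Xlr4a and Xlr4b (offset 7). No alignment with gaps was made, and Xlr3a and Xlr5c are given no value. These are descriptions of the sequence, and binding and methylation were not measured.

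The depth recovered from the TPM values was 15.33 to 30.07 M reads per library (1 M is 1e6). Chd4 itself (chr6:125095981-125130591) averaged 3.11 ± 1.71 TPM in P1 DcKO against 27.9 ± 4.66 in P1 Dctrl oocytes, 6.61 ± 2.36 against 16.2 ± 2.43 at P5, 0.791 ± 0.770 against 1.74 ± 0.157 in P10 NGO and 1.08 ± 0.641 against 2.26 ± 0.988 in P10 GO. In spermatogonia it averaged 46.0 ± 8.13 TPM in DcKO against 267 ± 26.7 TPM in Dctrl. The knockout mean was lower in all 5 comparisons, but among these only that at P1 passed the limma test (adjusted p = 0.0136), and the counts cover the whole gene rather than the deleted part. The P1 call was lost with a pseudocount of 0.1 and without P1 Dctrl replicate 1 or 2 or P1 DcKO replicate 2 (limma adjusted p = 0.0626 to 0.122). That in spermatogonia (limma adjusted p = 0.0671) passed with the filter at TPM 5 and without Dctrl replicate 1 or DcKO replicate 2 (limma adjusted p = 0.0155 to 0.0455). All 7 oocyte markers were detected in each oocyte library, and their summed level was 98450 and 109500 TPM in GO GcKO against 47910 and 49540 TPM in GO Gctrl libraries. That difference came with Dppa3, a maternal factor, at 94340 and 105500 against 45240 and 46800 TPM. All 7 markers of undifferentiated spermatogonia were detected in 3 of the 4 spermatogonia libraries and 6 in the fourth.

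In control oocytes all 9 Xlr genes were transcribed at every stage. Xlr4a had the highest level of the 30 genes in all 8 oocyte groups, with 37.5% to 51.9% of the TPM summed over the Xlr genes. Its level in controls was 587 and 604 TPM at P1, 615 and 432 at P5, 828 and 728 in P10 NGO and 376 and 450 in P10 GO. Next among the Xlr genes of controls came Xlr4c, at a mean of 175 ± 18.8 TPM at P1, 171 ± 57.2 at P5, 204 ± 61.9 in P10 NGO and 122 ± 1.33 in P10 GO. Below Xlr4a the order was close. At P10 in control NGO the libraries of Xlr4c (248 and 160.2 TPM), Xlr4b (239 and 157 TPM) and Xlr3a (160.1 and 149.6 TPM) overlapped or adjoined, so their order is within the spread.

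Spermatogonia had another order. Xlr3c was the leading Xlr gene there, with 236 and 194 TPM in DcKO against 234 and 240 TPM in Dctrl libraries, and it made up 27.9% of the summed Xlr level in knockouts and 38.2% in controls. The highest of the 30 genes was Mageb4, at 677 and 582 TPM in DcKO against 610.4 and 677 TPM in Dctrl spermatogonia, followed by Maged1, at 459 and 470 TPM in DcKO and 486 and 513 TPM in Dctrl. The Magea genes summed to 366 and 356 TPM in DcKO and 265 and 231 TPM in Dctrl spermatogonia, and Magea8 and Magea5 gave most of it. The spermatogonia were deposited in a table of their own, so levels set beside those of oocytes were scaled separately and were not tested against them.

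**Figure D1:**
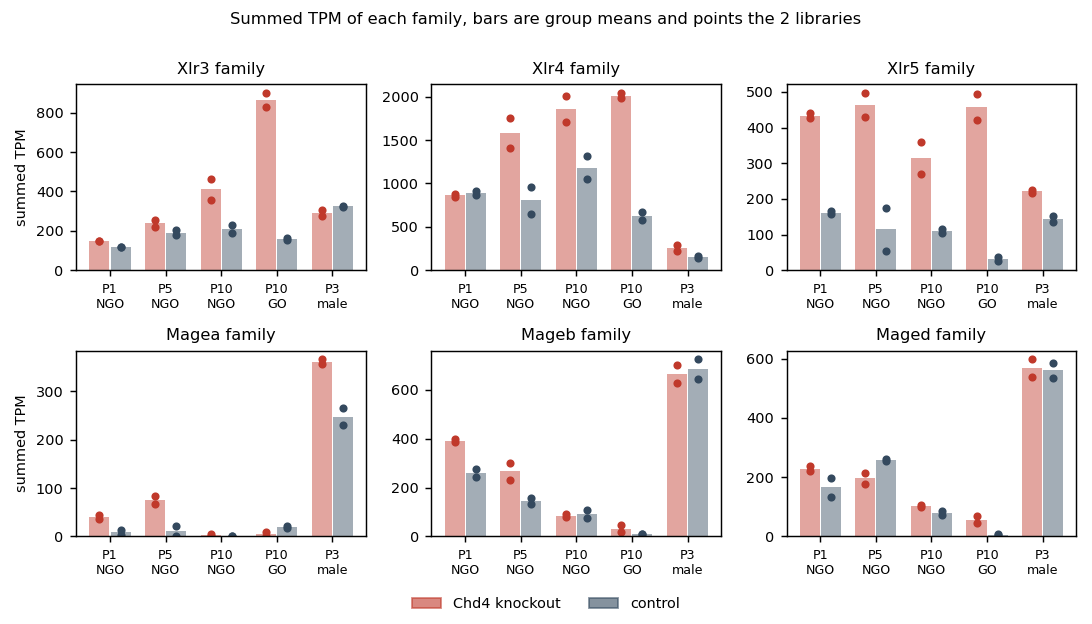
TPM summed over each of 6 families (panels, y axis from 0) in the 10 groups (x axis, knockout left of control at each stage); bars are group means and points the 2 libraries. The Xlr5 sum in P10 GO was 494 and 421 TPM in GcKO against 37.1 and 25.3 TPM in Gctrl, and the Magea sum was at most 21.5 TPM in any P10 oocyte library.

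More members, and also more of all genes tested, were called in growing oocytes at P10 than in any of the other 4 knockout comparisons. Of the 23 members that passed the filter (at least 1 TPM in at least 2 oocyte libraries), 10 were higher in GO GcKO than in GO Gctrl and none was lower. They were 8 of the 9 Xlr genes, all but Xlr3a, with Maged1 and Mageb16. Magea2, Mageb2 and Mageb18 passed the filter only through knockout libraries, and none of them was among the 10. Magea4 and Magea6 would not have passed from control libraries alone, and were not among the 10 either. In this comparison 9.12% of the 20470 genes tested were called higher and 4.69% lower by limma at an adjusted p under 0.05, and 13.8% in either direction. The median fold change of the 9 Xlr genes was 2.95 on the log2 scale of TPM + 1 and that of the 23 members 1.31, beside 0.06 over all genes tested. In such bulk libraries more cells of a type and more RNA per cell cannot be told apart.

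Xlr3c, a copy near the Xlr5c end of the cluster, had 540.2 and 486 TPM in GO GcKO against 12.5 and 34.4 TPM in GO Gctrl libraries. Its fitted fold change was 4.55 ± 0.603 (log2, SE; limma adjusted p = 0.00037). Xlr3b had 208 and 192 TPM in GO GcKO against 20.2 and 21.1 TPM in GO Gctrl, a fold change of 3.21 ± 0.249 (limma adjusted p = 7.71e-06). Both copies stood far above their controls, with no overlap. The third copy, Xlr3a, had 149.8 and 152 TPM in GO GcKO against 130.4 and 98.7 TPM in GO Gctrl, which did not overlap either, but its fold change of 0.41 did not pass (limma adjusted p = 0.381).

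The Xlr5 genes had the lowest mean control levels of the 9 Xlr genes at this stage. Xlr5c had 226 and 220.1 TPM in GO GcKO against 12.7 and 10.2 TPM in GO Gctrl (log2 fold change 4.17 ± 0.610, limma adjusted p = 0.000707). Xlr5a had 171 and 132 TPM in GO GcKO against 11.6 and 7.78 TPM in GO Gctrl (3.84 ± 0.353, limma adjusted p = 2.7e-05). Xlr5b had 96.2 and 69.4 TPM in GO GcKO against 12.8 and 7.29 TPM in GO Gctrl (2.95 ± 0.414, limma adjusted p = 0.000531). The ratio of mean TPM was 19.4 for Xlr5c, 15.6 for Xlr5a and 8.26 for Xlr5b.

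The Xlr4 genes, higher in controls than the Xlr5 genes, differed by smaller factors than those did. Xlr4a had 1198 and 1298 TPM in GO GcKO against 376 and 450 TPM in GO Gctrl, a log2 fold change of 1.60 ± 0.179 (limma adjusted p = 0.000111). Xlr4c had 520.2 and 394 TPM in GO GcKO against 121 and 123 TPM in GO Gctrl (1.88 ± 0.256, limma adjusted p = 0.000449). Xlr4b had 320.0 and 291 TPM in GO GcKO against 78.1 and 93.0 TPM in GO Gctrl (1.83 ± 0.266, limma adjusted p = 0.000684). The ratios of mean TPM of the 3 genes lay between 3.02 and 3.73. Over the 23 tested members, libraries of 14 were higher in GO GcKO without overlap and of 1 lower, beside 30.3% and 18.0% of all genes tested. The 14 included Mageb18, which passed the filter only through knockout libraries.

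**Figure D2:**
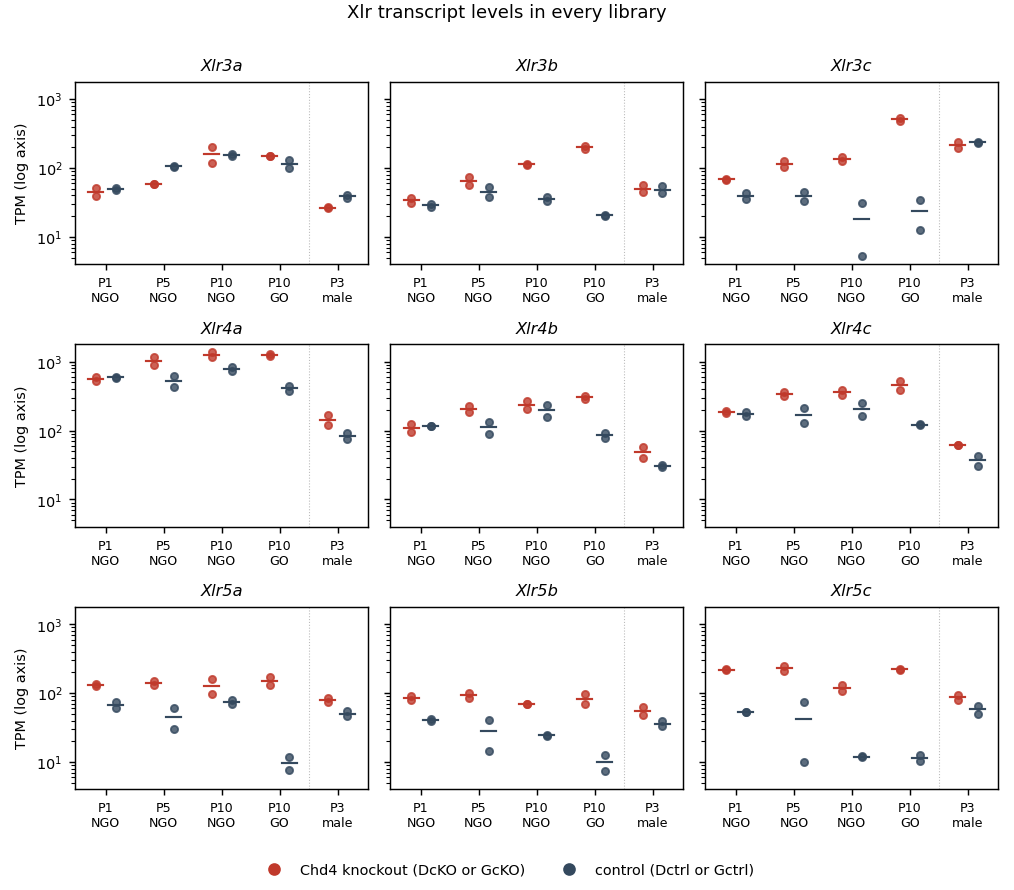
TPM of the 9 Xlr genes (1 panel each, y axis on a log scale) in every library, with knockouts left of controls at each stage; points are libraries and bars are means of 2. In P10 GO the GcKO libraries of Xlr3b, Xlr3c and the 3 Xlr5 genes lie between 69.4 and 540.2 TPM and the Gctrl libraries between 7.29 and 34.4 TPM, while those of Xlr3a lie close together.

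Among the MAGE genes, Maged1, a type II gene whose protein binds the ligase PJA1 and the neurotrophin receptor p75, had 67.4 and 42.4 TPM in GO GcKO against 7.83 and 4.31 TPM in GO Gctrl. The log2 fold change was 2.99 ± 0.322 (limma adjusted p = 8.06e-05), with a ratio of mean TPM of 9.04. Mageb16 had 26.8 and 16.6 TPM in GO GcKO against 7.91 and 7.98 TPM in GO Gctrl (1.31 ± 0.310, limma adjusted p = 0.0144). The Mageb16 call was kept under only 5 of the 10 alternative settings tried. Those that lost it included the fits without GO GcKO replicate 1 and without GO Gctrl replicate 1 or 2. With a library left out, the log2 fold change of Mageb16 was 0.98 to 1.63. Maged1 and the 8 Xlr genes passed under each of the 10 alternative settings tried.

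The other MAGE genes were low or variable in growing oocytes. Maged2 had 2.63 and 1.57 TPM (64 and 33 reads) in GO GcKO against 0.0406 and 0 TPM (1 and 0 reads) in GO Gctrl, and did not pass (limma adjusted p = 0.0863). Magea10 was the only Magea gene above 1 TPM in a P10 oocyte library, with 9.88 and 0.677 TPM in GO GcKO against 21.2 and 16.99 TPM in GO Gctrl (limma adjusted p = 0.283). Mageb18 reached 9.09 TPM in GO GcKO replicate 1 and 0.206 TPM in replicate 2, against 0.0587 and 0 TPM in GO Gctrl. The knockout replicates of Mageb4 likewise lay apart, at 10.2 and 0.927 TPM against 3.01 and 0.537 TPM in GO Gctrl. Mageh1 had 33.0 and 20.8 TPM in GO GcKO against 14.6 and 20.3 TPM in GO Gctrl, without overlap but without passing the test.

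Markers of other ovarian cells were low in growing oocytes. The 10 supporting-cell markers summed to 3.20 and 25.1 TPM in GO GcKO against 1.32 and 0.425 TPM in GO Gctrl, with 2 and 4 of them at 0 in knockouts and 6 in each control. The 5 endothelial markers summed to 102 and 2.78 TPM in GO GcKO against 6.64 and 2.96 TPM in GO Gctrl. In GO GcKO replicate 1, 98.6 TPM of that sum was Pecam1, with Cdh5, Kdr and Emcn at 0. The 7 stromal markers summed to at most 3.26 TPM in any of the 4 libraries. The supporting-cell sums were higher in knockouts, but through different genes. In GO GcKO replicate 1, Fst had 2.21 TPM, and in replicate 2 Krt18 had 13.8 and Foxl2 4.69 TPM. Of the 6 supporting-cell markers tested 0 were called, while 4 of the 7 oocyte markers were called higher, beside 9.12% of all genes tested. The part of either in the result was not tested.

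In non-growing oocytes at P10, 3 members were higher in GcKO than in Gctrl and none lower, all of them Xlr genes, where 1.02% of all genes tested were called higher, 0.899% lower and 1.92% in either direction. Xlr3b had 114 and 112 TPM in NGO GcKO against 37.8 and 33.1 TPM in NGO Gctrl (log2 fold change 1.65 ± 0.249, limma adjusted p = 0.00886). Xlr3c had 145 and 128 TPM in NGO GcKO against 30.7 and 5.33 TPM in NGO Gctrl (3.28 ± 0.603, limma adjusted p = 0.0205). Xlr5c had 130.1 and 106 TPM in NGO GcKO against 11.7 and 12.2 TPM in NGO Gctrl (3.19 ± 0.610, limma adjusted p = 0.0237). For each of the 3 genes both knockout libraries were above both controls, and Xlr3b passed without any single library. Without NGO Gctrl replicate 2 it was the only member called, and the limma adjusted p was 0.0553 for Xlr3c and 0.0766 for Xlr5c. Both genes also missed the threshold without NGO GcKO replicate 2 (limma adjusted p = 0.0513 and 0.0544), and Xlr5c without NGO Gctrl replicate 1 (limma adjusted p = 0.0546).

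Xlr4a in the same cells had 1163 and 1360 TPM in GcKO against 828 and 728 TPM in Gctrl, and missed the threshold (limma adjusted p = 0.0761). Xlr5b, with 68.8 and 68.9 TPM in NGO GcKO against 25.0 and 24.1 TPM in NGO Gctrl, also missed it (limma adjusted p = 0.109). Libraries of 7 Xlr genes were higher in knockouts without overlap, as were those of 17.4% of all genes tested. Maged2 had 8.54 and 2.06 TPM in NGO GcKO against 0.0400 and 0.177 TPM in NGO Gctrl (limma adjusted p = 0.0635), where it had 1 and 4 reads. Maged1 and Mageb16 were not called in these cells, with 89.7 and 105 TPM of Maged1 in NGO GcKO against 84.8 and 70.6 TPM in NGO Gctrl, and 27.8 and 32.1 TPM of Mageb16 against 31.9 and 36.5 TPM. The supporting-cell markers summed to 12.5 and 2.39 TPM in NGO GcKO against 0.0596 and 0.173 TPM in NGO Gctrl, and their part was not tested.

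The difference between the knockout effects of growing and non-growing oocytes was tested directly. It was positive for 4 of the 23 members and negative for none, beside 4.84% of all genes tested called positive, 2.62% negative and 7.46% in either direction. Maged1 differed by 2.67 ± 0.456 on the log2 scale (limma adjusted p = 0.00484) and Xlr5a by 3.11 ± 0.500 (limma adjusted p = 0.00336). Xlr3b differed by 1.57 ± 0.352 (limma adjusted p = 0.02) and Xlr4b by 1.56 ± 0.376 (limma adjusted p = 0.0282). Xlr4a (limma adjusted p = 0.0522) and Mageb16 (limma adjusted p = 0.0619) came close without passing. Without GO Gctrl replicate 1, and likewise without replicate 2, the members called were Maged1 and Xlr5a, and the limma adjusted p of Xlr3b was 0.0579 and 0.0508. Xlr4b lost its call without any of 5 of the 8 libraries (limma adjusted p = 0.0528 to 0.0927).

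**Figure D3:**
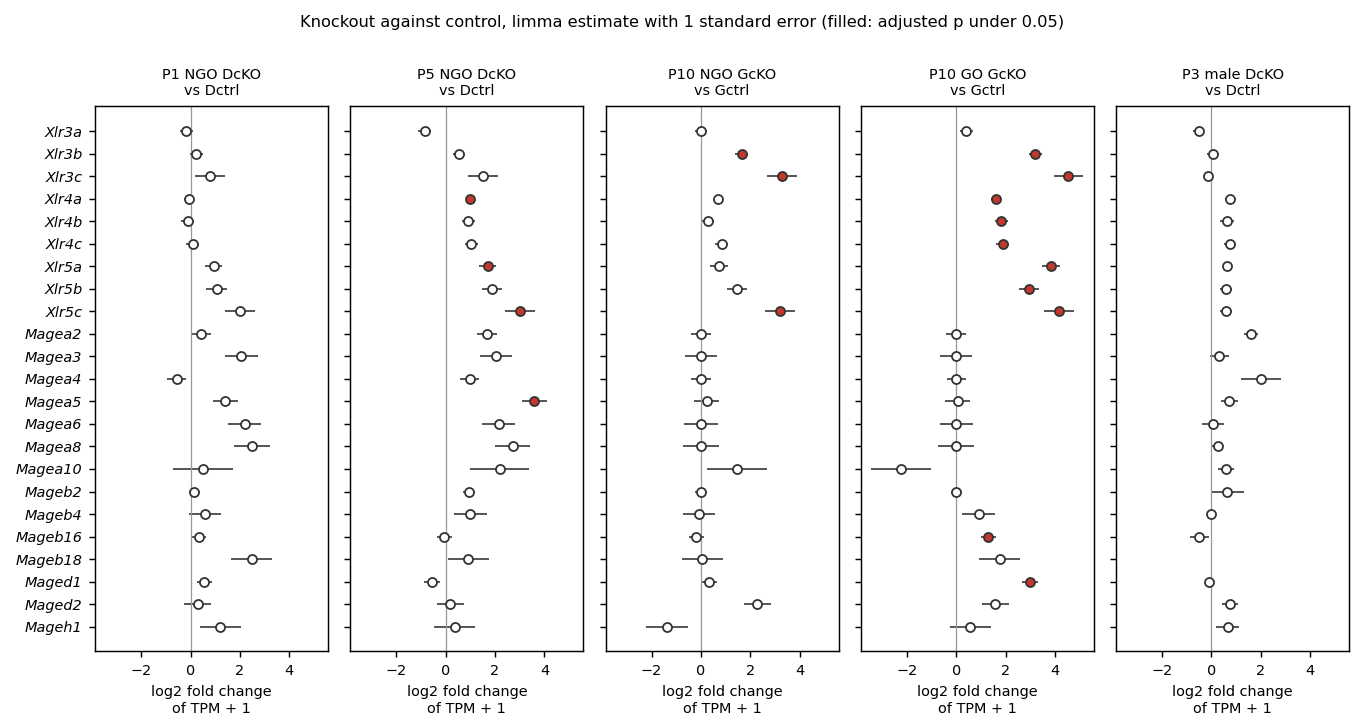
Knockout-minus-control log2 fold change of TPM + 1 (x axis) for the 23 members that reached a mean of 5 TPM in a group or passed a test (rows, where tested) in the 5 cell groups, with SE bars and filled points for a limma adjusted p under 0.05. In P10 GO the 8 filled Xlr points lie between 1.60 and 4.55, with Xlr3a unfilled at 0.41.

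Growing and non-growing oocytes of the controls also differed in these families. GO Gctrl were lower than NGO Gctrl in 8 members and higher in 1, where 13.2% of all genes tested were called lower, 11.0% higher and 24.3% in either direction. Mageb4 had 3.01 and 0.537 TPM in GO Gctrl against 43.6 and 73.8 TPM in NGO Gctrl (log2 fold change -4.54 ± 0.662, limma adjusted p = 0.000323). Maged1 had 7.83 and 4.31 TPM in GO Gctrl against 84.8 and 70.6 TPM in NGO Gctrl (-3.52 ± 0.322, limma adjusted p = 1.22e-05). Xlr5a had 11.6 and 7.78 TPM in GO Gctrl against 79.5 and 69.4 TPM in NGO Gctrl (-2.84 ± 0.353, limma adjusted p = 0.000105). Xlr3b, Xlr4a, Xlr4b, Xlr5b and Mageb16 were the other calls, with fold changes of -0.75, -0.91, -1.18, -1.26 and -1.97. Magea10 was the gene that was higher, at 21.2 and 16.99 TPM in GO Gctrl against 0.498 and 0.0785 TPM in NGO Gctrl (3.98 ± 1.21, limma adjusted p = 0.0315). Mageb4, Mageb16, Maged1, Xlr4a and Xlr5a passed without any single library. The calls of Magea10 and Xlr3b were lost without each of the 4 libraries in turn. That of Xlr5b was lost without all but GO Gctrl replicate 1, and that of Xlr4b without replicate 1 of NGO or of GO Gctrl. With a library left out the log2 fold change was 3.74 to 4.21 for Magea10 and -0.84 to -0.66 for Xlr3b. It was -1.62 to -0.89 for Xlr5b and -1.48 to -0.88 for Xlr4b. Other settings lost calls too, since of 10 alternatives 4 kept that of Magea10, 3 that of Xlr3b and 4 that of Xlr5b.

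The comparisons of growth in controls and of knockout in growing oocytes share the GO Gctrl libraries, so their values are given side by side only. For Xlr5a the 4 group means at P10 were 151 ± 28.2 TPM in GO GcKO, 9.71 ± 2.73 in GO Gctrl, 128 ± 46.2 in NGO GcKO and 74.5 ± 7.13 in NGO Gctrl. For Maged1 they were 54.9 ± 17.6 TPM in GO GcKO, 6.07 ± 2.49 in GO Gctrl, 97.3 ± 10.8 in NGO GcKO and 77.7 ± 10.0 in NGO Gctrl. For Mageb16 they were 21.7 ± 7.16 TPM in GO GcKO, 7.95 ± 0.0492 in GO Gctrl, 30.0 ± 2.99 in NGO GcKO and 34.2 ± 3.27 in NGO Gctrl. All 3 genes were thus lowest in GO Gctrl among these 4 groups. Xlr3c had another pattern, with 513 ± 38.0 TPM in GO GcKO, 23.5 ± 15.5 in GO Gctrl, 136 ± 12.3 in NGO GcKO and 18.0 ± 17.9 in NGO Gctrl: its control level was low in both stages. Mageb4, lower in growing control oocytes, stayed low in GO GcKO at 5.56 ± 6.56 TPM against 1.77 ± 1.75 TPM in GO Gctrl.

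At P1 no member passed the test in DcKO against Dctrl oocytes, where limma called 0.86% of all genes tested higher, 0.84% lower and 1.7% in either direction. At an unadjusted p under 0.05 there were 8 of 23, all higher in DcKO, beside 2092 of the 20470 genes tested, of which 1016 were higher and 1076 lower. Xlr5c had 221 and 214 TPM in P1 DcKO against 53.0 and 53.7 TPM in P1 Dctrl (log2 fold change 2.01 ± 0.610, limma adjusted p = 0.171). The largest fold change was that of Magea8, with 10.1 and 7.17 TPM in DcKO against 0.0806 and 1.67 TPM in Dctrl (2.48 ± 0.726, limma adjusted p = 0.148). Libraries of 16 members were higher in DcKO without overlap and of none lower, beside 18.4% and 22.5% of all genes tested. Among the 16, Mageb2 and Mageb18 passed the filter only through knockout libraries. Magea6, among the 16 and the 8, would not have passed from control libraries alone. Of the oocyte controls, only P5 Dctrl replicate 1 held it at 1 TPM or more (1.82 TPM). Mageb2 had 1 and 3 reads in P1 DcKO against 0 and 0 in P1 Dctrl. Mageb18, at 2.69 and 7.43 TPM in DcKO against 0 and 0 TPM in Dctrl, was also among the 8 at an unadjusted p under 0.05. The 16 included Mageb4, with 367 and 340.0 TPM in DcKO against 248 and 221 TPM in Dctrl, and Mageh1, with 27.1 and 22.2 TPM in DcKO against 9.31 and 10.8 TPM in Dctrl.

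At P5, 4 members were higher in DcKO than in Dctrl oocytes and none lower, where 1.05% of all genes tested were called higher, 0.313% lower and 1.36% in either direction. Magea5, a type I MAGE gene of the main Magea cluster, had 21.0 and 19.99 TPM (336 and 292 reads) in P5 DcKO against 2.15 and 0 TPM (32 and 0 reads) in P5 Dctrl. Its fitted fold change was 3.60 ± 0.503 (limma adjusted p = 0.0072). Xlr5c had 210.5 and 248 TPM in DcKO against 73.6 and 9.86 TPM in Dctrl (3.01 ± 0.610, limma adjusted p = 0.0351). Both genes were clear of their controls, and the control libraries of Xlr5c lay far apart.

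Xlr5a had 133 and 148 TPM in P5 DcKO against 61.02 and 29.7 TPM in P5 Dctrl (1.70 ± 0.353, limma adjusted p = 0.0391). Xlr4a had 905 and 1161 TPM in DcKO against 615 and 432 TPM in Dctrl (0.99 ± 0.179, limma adjusted p = 0.0216). In each of these, P5 Dctrl replicate 2 was the lowest library. The count of members called was 0 without that library, 8 without P5 Dctrl replicate 1, 2 without P5 DcKO replicate 1 and 0 without P5 DcKO replicate 2. Without P5 Dctrl replicate 2 the limma adjusted p was 0.06 for Magea5, 0.0582 for Xlr5c, 0.354 for Xlr5a and 0.215 for Xlr4a.

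Other Magea genes at P5 were higher in DcKO without passing. Magea8 had 24.8 and 7.32 TPM in DcKO against 4.03 and 0 TPM in Dctrl, Magea6 had 14.5 and 2.6 against 1.82 and 0 TPM, and Magea3 had 11.5 and 5.61 against 3.33 and 0.115 TPM. Summed over the 8 Magea genes, the level was 83.7 and 66.7 TPM in P5 DcKO against 20.9 and 1.72 TPM in P5 Dctrl, and 35.5 and 44.7 TPM in P1 DcKO against 4.08 and 13.2 TPM in P1 Dctrl. Libraries of 16 members were higher in P5 DcKO without overlap and of 2 lower, beside 23.9% and 23.4% of all genes tested. The 16 included Magea2 and Mageb2, which passed the filter only through knockout libraries. They also included Magea4 and Magea6, which would not have passed from control libraries alone. Among oocyte controls Magea4 reached 1 TPM only in P1 Dctrl replicate 2 (1.19 TPM), and Magea6 only in P5 Dctrl replicate 1 (1.82 TPM). The 2 lower were Xlr3a, with 58.8 and 57.7 TPM in DcKO against 105 and 107 TPM in Dctrl (limma adjusted p = 0.167), and Maged1, with 152 and 149 TPM in DcKO against 216 and 224 TPM in Dctrl. The supporting-cell markers summed to 34.5 and 57.4 TPM in P5 DcKO against 5.95 and 7.91 TPM in P5 Dctrl, most of it Inha and Krt18. At P1 they summed to 13.4 and 72.6 TPM in DcKO against 71.9 and 126.9 TPM in Dctrl. Of the 6 supporting-cell markers tested, 1 was called higher at P5, beside 1.05% of all genes tested, and 0 at P1. None was called lower at either age, and their part was not tested.

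**Figure D4:**
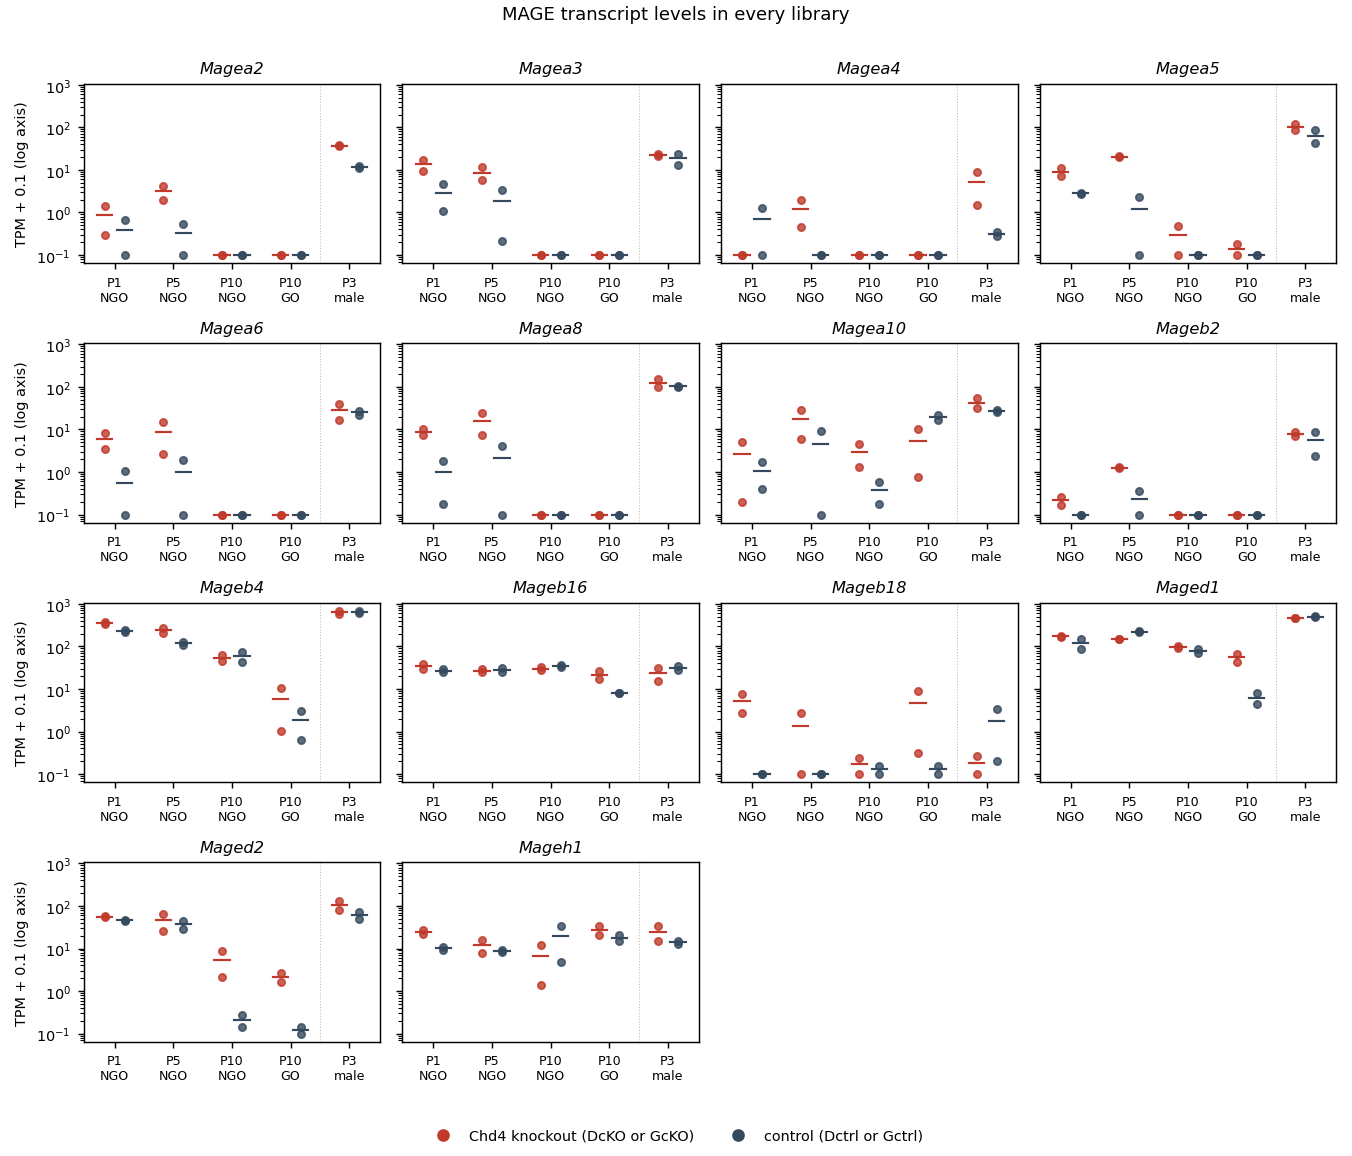
TPM of the MAGE genes that reached a mean of 5 TPM in a group or passed a test (1 panel each, y axis showing TPM + 0.1 on a log scale) in every library, knockouts left of controls; points are libraries and bars are means of 2. Magea5 lies at 21.0 and 19.99 TPM in P5 DcKO against 2.15 and 0 TPM in P5 Dctrl, and Maged1 at 67.4 and 42.4 TPM in P10 GO GcKO against 7.83 and 4.31 TPM in P10 GO Gctrl.

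Between P5 and P1 the knockout effect of no member differed past the test, where 0.313% of all genes tested did (0.23% with a larger and 0.083% with a smaller effect at P5), and 8 members did at an unadjusted p under 0.05. Of these, 7 had the larger and 1 the smaller effect at P5, beside 1505 of the 20470 genes tested, 981 with the larger and 524 with the smaller effect. The 7 included Magea2 and Mageb2, which passed the filter only through knockout libraries, and Magea4, which would not have passed from control libraries alone. The smallest p was that of Xlr4a, whose effect was 1.07 ± 0.253 larger at P5 on the log2 scale (limma adjusted p = 0.118). Between the control groups, Xlr3a was higher at P5, at 105 and 107 TPM, than at P1, at 48.6 and 51.4 TPM (1.07 ± 0.263, limma adjusted p = 0.0389). It was the only member called there, beside 2.72% of all genes tested called higher at P5, 1.98% lower and 4.7% in either direction. That call was lost without P1 Dctrl replicate 1 or 2 (limma adjusted p = 0.234 and 0.154) and without P5 Dctrl replicate 1 or 2 (0.163 each), although without P5 Dctrl replicate 1 Xlr5c was called instead, as lower at P5.

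In spermatogonia 25 members passed the filter and none passed the test in DcKO against Dctrl, as none of the 18671 genes tested did (0.0%). This fit held only the 4 spermatogonia libraries and so had 2 residual degrees of freedom. At an unadjusted p under 0.05 there were 6 members, all higher in DcKO, beside 3004 of all genes tested, 2073 higher and 931 lower. Among the 6, Magea4 passed the filter only through knockout libraries, with 1.36 and 8.92 TPM in DcKO against 0.176 and 0.244 TPM in Dctrl. Magea2 had 36.2 and 38.0 TPM in DcKO against 10.9 and 12.4 TPM in Dctrl (log2 fold change 1.59 ± 0.288, limma adjusted p = 0.143). Xlr4a had 169 and 120.4 TPM in DcKO against 92.2 and 75.3 TPM in Dctrl, and Xlr4c had 62.7 and 62.3 against 43.2 and 30.5 TPM. Libraries of 11 members were higher in DcKO without overlap and of 3 lower, beside 27.9% and 18.0% of all genes tested. The 11 included Magea4.

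The 3 lower members in spermatogonia were Xlr3a, with 26.4 and 26.9 TPM in DcKO against 40.4 and 37.1 TPM in Dctrl, Maged1 and the low Mageb1. Xlr3c and Mageb4, the leading genes of these cells, overlapped between the groups. Summed markers of other cells were higher in spermatogonia DcKO. Supporting-cell markers summed to 363 and 492 TPM against 173 and 123 TPM in Dctrl, where Krt18 alone had 252 and 376 TPM against 48.5 and 59.2 TPM. Others of that list went both ways. The means of Amh, Fst and Inha were higher in DcKO and those of Amhr2, Gata4 and Cldn11 lower. Stromal markers summed to 36.6 and 40.1 TPM in DcKO against 7.80 and 11.7 TPM in Dctrl. The part of these markers was not tested. Of the 7 members that never reached a mean of 5 TPM, Magel2 and Mageb5 had no read in any library and Magee2 none in oocytes, with 5.57 and 0 TPM in DcKO against 0.144 and 5.85 TPM in Dctrl spermatogonia. Magea1, Mageb1, Mageb3 and Magee1 had at most 6.72 TPM in any knockout library, that of Mageb3 in spermatogonia, and at most 3.81 TPM in any control library.

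The relatives of Xlr with a Cor1 region were read beside the family. Sycp3 had 1921 and 1762 TPM in GO GcKO against 229 and 154 TPM in GO Gctrl (log2 fold change 3.29 ± 0.135, limma adjusted p = 3.54e-07). Xlr, after which the family is named, had 53.5 and 41.2 TPM in GO GcKO against 1.47 and 4.76 TPM in GO Gctrl (3.67 ± 0.512, limma adjusted p = 0.000517). Both were thus higher in knockouts of this stage, and both were lower in GO than in NGO controls (Sycp3 -3.68, limma adjusted p = 4.72e-08; Xlr -2.97, limma adjusted p = 0.00106). In P10 NGO, Sycp3 had 3871 and 3614 TPM in GcKO against 2417 and 2423 TPM in Gctrl (0.63 ± 0.135, limma adjusted p = 0.0375). Slx and Slxl1, the other 2 of the 4 relatives, were not tested in oocytes, where each had at most 1 read in a library.

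Of 14 genes for MAGE relatives and partner proteins, 1 was higher in GO GcKO and none lower, against 9.12% and 4.69% of all genes tested. It was Pja1, the ligase that MAGE-D1 binds, with 55.9 and 50.3 TPM in GO GcKO against 13.5 and 6.33 TPM in GO Gctrl (2.39 ± 0.356, limma adjusted p = 0.000796). None of the 14 passed in the other knockout comparisons. Of 17 tested genes for factors known to silence germline genes, 2 were higher and 2 lower in GO GcKO. L3mbtl2 and Hdac1 were higher, by 1.80 and 1.45 on the log2 scale (limma adjusted p = 0.0419 and 0.0469), and Pcgf6 and Dnmt3l lower, at -1.02 and -2.91 (limma adjusted p = 0.0408 and 0.00032). Dnmt3l, a cofactor of de novo DNA methylation in growing oocytes, had 0.134 and 0 TPM in GO GcKO against 3.96 and 11.9 TPM in GO Gctrl.

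Other X-linked genes were counted for comparison. Of 801 tested genes on chromosome X that are not members, 109 were higher in GO GcKO (13.6%) and 38 lower (4.74%), with a median fold change of 0.19 on the log2 scale. At P5, 23 of them were higher in DcKO (2.87%), and in P10 NGO 11 were higher in GcKO (1.37%). The members' own counts were 10 of 23 in GO, 4 of 23 at P5 and 3 of 23 in P10 NGO, and since members share reads and a cluster they are not independent of each other.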

How the data were processed

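Total RNA from oocytes and undifferentiated spermatogonia was extracted with RNeasy Plus Micro and made into paired-end libraries with a low-input kit, per the labels' protocols. The authors deposited TPM values, 1 table for the 16 oocyte libraries and 1 for the 4 spermatogonia libraries. The submitters' processing notes name featureCounts 2.0.1, STAR 2.5.4b, Trimmomatic 0.39, SAMtools 1.9 and the GRCm38 build. Annotation, gene lengths and strand setting are not given in the sources used here. Read depth was recovered from TPM and GENCODE M21 union exon lengths: 98.65% to 99.19% of values under 20 reads fell within 0.05 of a whole number.

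Log2(TPM + 1) values were fitted with limma 3.58.1 in R 4.3.3 (lmFit, contrasts.fit and trended eBayes). Tests were two-sided, p-values were adjusted by Benjamini-Hochberg across every tested gene of a comparison, and calls were made under 0.05. This scale understates the fold changes of low genes. A gene was tested where 2 or more libraries reached 1 TPM, which left 20470 genes in the fit of all oocyte libraries (8 residual degrees of freedom, prior 3.842) and 18671 genes in the fit of spermatogonia (2 residual, prior 3.973). The procedure was tested on simulated data. Figures were drawn with matplotlib 3.10.9 and tables built with numpy 2.4.6 and pandas 2.3.3 under Python 3.11.15. Members are given with every library where they passed a knockout or difference test or reached a mean of 5 TPM in a group, which 23 of 30 did, and the other 7 by range. From each list of related genes the text gives counts and up to 3 genes of smallest p, plus Pcgf6, Hdac1 and Dppa3, named after their values were seen. The members and lists were chosen with earlier results of these data known. Alternatives tried were a pseudocount of 0.1, a filter at TPM 5, no filter, quantile normalization, a replicate block, each library left out in turn, and only the compared groups in the fit.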

Additional observations from a re-analysis of the deposited data

Results flagged for a closer look

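The knockout effect of 4 members differed between growing and non-growing oocytes at P10 by a test of the difference itself (limma, adjusted over all genes tested). The difference, growing minus non-growing, was 2.67 on the log2 scale for Maged1, 1.57 for Xlr3b, 1.56 for Xlr4b and 3.11 for Xlr5a. For Maged1 every knockout library lay above both controls at P1 (166 and 179 TPM in DcKO against 88.7 and 152 TPM in Dctrl oocytes) and below both in spermatogonia (459 and 470 TPM in DcKO against 486 and 513 TPM in Dctrl). Neither effect was called (limma adjusted p = 0.65 at P1 and 0.765 in spermatogonia). Of all genes tested, 18.4% were higher without overlap at P1 and 18.0% lower without overlap in spermatogonia. The effect at P1 minus that in spermatogonia was 0.67 on the log2 scale, the 2 values come from tables scaled separately, and this difference was not tested. In P5 oocytes, too, both knockout libraries lay below both controls (152 and 149 TPM in DcKO against 216 and 224 TPM in Dctrl). That effect was not called either (limma adjusted p = 0.59). The effect at P5 minus that at P1 was -1.11 ± 0.456 (log2, SE) and did not pass (limma adjusted p = 0.589).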

How the results depend on the processing

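In growing oocytes 9 to 12 members were called under all 10 alternatives, against 10 as reported, and of the 326 refits of called members none reversed while 68 missed the threshold. For the 23 members given with every library, where not called in a knockout comparison, 46 of 908 refits turned sign. Of these 97 pairs of gene and comparison, 35 turned sign in at least 1 refit. Members called at P5 numbered 2 with the filter at TPM 5, 0 with only the compared groups in the fit, and 0 to 8 with a library left out. In P10 NGO they numbered 1 with no filter, 5 with quantile normalization, 0 with only the compared groups, and 1 to 3 with a library left out. At P1 there was 1 with only the compared groups. For P5 against P1 controls there were 2 with only the compared groups and 0 to 1 with a library left out. For the difference of effects between P5 and P1 there were 2 with no filter and 0 to 2 with a library left out. For that between GO and NGO there was 1 with only the compared groups and 2 to 6 with a library left out. The causes were not tested, although fits of only the compared groups have fewer libraries to estimate spread. Calls over all genes ranged over the alternatives from 71 to 467 at P1 (348 reported), 0 to 449 at P5 (278), 0 to 1260 in P10 NGO (393), 1527 to 3346 in GO (2827), 249 to 2358 between the P5 and P1 controls (962), 10 to 318 for the difference of effects between P5 and P1 (64), 385 to 2168 for that between GO and NGO (1527) and 0 to 56 in spermatogonia (0), where no alternative called a member. Deviations of same-numbered libraries correlated over genes at -0.0492 to 0.0206. With only 2 libraries a group, this cannot show whether same-numbered libraries belonged together. With a replicate block the members called were 0 at P1, 4 at P5, 3 in P10 NGO, 10 in GO and 0 in spermatogonia, 1 between P5 and P1 controls, 8 between GO and NGO controls, and 0 and 4 for the differences of effects. With 2 libraries a group, and few reads on members near 0 TPM, small changes were not detectable at this depth.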

Other observations

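Symbols with -ps, left out of the families, also had reads. Mageb10-ps, which overlaps Mageb4 in the annotation, had 536 and 599.8 TPM in P1 DcKO against 307 and 361 TPM in P1 Dctrl, 361 and 479 TPM in P5 DcKO against 236 and 197 TPM in P5 Dctrl, and 646 and 649 TPM in DcKO against 718 and 646 TPM in Dctrl spermatogonia. In P10 growing oocytes Xlr4d-ps had 78.8 and 43.4 TPM in GcKO against 0 and 0.829 TPM in Gctrl libraries, and Mageb6-ps had 29.7 and 25.1 TPM in GcKO against 0.128 and 0 TPM in Gctrl. Not all -ps rows did so in these cells. Magea9-ps overlapped, with 20.6 and 16.8 TPM in GcKO against 0.586 and 18.9 TPM in Gctrl. Mageb8-ps was at 0 TPM in both groups, and the mean of Xlr3e-ps was lower in GcKO (0.113 against 0.391 TPM). Mageb7-ps was mainly in spermatogonia, at 159.8 and 134 TPM in DcKO against 146 and 121 TPM in Dctrl. Mageb10-ps shares windows with Mageb4, at 40.5% of the windows of Mageb4. Sharing of the other -ps rows named here with members is not given, and no test of these rows is given.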
